A study of Homo sapiens with 12 samples.

Results

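The MYC-MAX-MondoA network is a set of transcription factors that share the small partner proteins MAX and MLX, and it was followed here through 10 mRNAs in the polysomes of triple-negative breast cancer (TNBC) cells: MYC, MAX, MXD3, MXD4, MXI1, MNT, MLX, MLXIP, TXNIP and ARRDC4. The members were taken by symbol, with the counts of all transcripts of a symbol added together, and all 10 were among the 16538 gene symbols tested out of 24559 in the table. The 10 were listed with the fold changes of these same libraries in view, so their levels and fold changes below are a description and carry no p-value.

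MYC pairs with MAX, and the pair binds the E-box, a short DNA word, to raise transcription of genes for ribosome production, nucleotide synthesis and cell growth. MXD3, MXD4, MXI1 and MNT also pair with MAX at E-boxes but bring SIN3 and histone deacetylase complexes that lower transcription. MLX pairs with MLXIP, known as MondoA, which answers to glucose-derived metabolites and drives TXNIP and ARRDC4. These are a pair of alpha-arrestins, of which TXNIP binds thioredoxin and restrains glucose uptake.

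The study asked how TRMT112, a cofactor of methyltransferases that act on rRNA, tRNA and translation factors, bears on which mRNAs are translated. There were 12 libraries, 2 in each of 6 groups. MDA-MB-231 and SUM159 cells carried a GIPZ TRMT112 shRNA (KD) or a GIPZ non-silencing control (EV) under puromycin, and BT549 cells carried a TRMT112 open reading frame in pReceiver-M02 (OE) or its empty vector (EV) under G418. All 3 are established human TNBC lines. MDA-MB-231 was grown in DMEM/F-12 with 5% serum, SUM159 in the same with 5 µg/mL insulin and 1 µg/mL hydrocortisone, and BT549 in RPMI 1640 with 10% serum. Whether the selected cells were single clones or mixed populations is not given in the sources used here. Line, medium, vector and selection cannot be told apart between BT549 and the other lines. Cells were treated with cycloheximide, lysates were run on sucrose gradients, and RNA was sequenced from the pooled polysome fractions, which hold mRNA bound by several ribosomes. No libraries of total RNA were analysed, so a lower value can be less mRNA or fewer ribosomes on it, and these cannot be told apart. The paper reports smaller polysome peaks in both KD lines and larger ones in BT549 OE. Counts here are scaled between libraries, so higher and lower are relative to the rest of the polysome RNA, not absolute amounts. Nothing in the labels says that the 2 libraries of a group came from separate cultures, so the errors below measure the spread between libraries and may be technical.

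TRMT112 itself (chr11:64316460-64317559, GRCh38) followed the labels: its normalized count fell from 4042 to 1723 in MDA-MB-231 and from 6449 to 3804 in SUM159, and rose from 3081 to 4303 in BT549. Normalized counts are counts scaled between libraries by the TMM method, and library totals lay between 22954226 and 27434677. Vimentin (VIM) was high in all 6 groups (17136 to 47402 normalized counts), the receptor gene PGR was at 6.63 or below, ESR1 had no entry in the table, and ERBB2 lay between 1412 and 3359.7. The keratin KRT18 was at 4933 and 8788 in SUM159 and MDA-MB-231 EV but at 6.05 in BT549 EV. EPCAM, another epithelial marker, was at 70.9 or below throughout and so does not set BT549 apart. The markers CDH1, KRT8, KRT19, ZEB1, FN1 and CDH2 were also listed and are not described here. PTPRC, a marker of blood cells, was at 9.94 or below. The BT549 groups stood far apart in marker genes: CD68, a lysosomal gene used as a macrophage marker, was at 4209.8 in EV and 165 in OE, and VIM at 47402 and 17136. What these markers have to do with the BT549 results below was not tested. The table lists no transcript with 0 in every BT549 library, so transcripts silent in BT549 were not analysed here.

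The promoters of both arrestin genes and the E-boxes of 3 network genes are shown because these are the DNA words that the network's proteins read. Of the 10 members, 9 had a window in the RefSeq table (GRCh38.p14), and the 250 bases before the start were searched on both strands for the E-box CACGTG, which reads the same on both strands, and for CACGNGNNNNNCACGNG, a pair of CACGNG sites (a word that the E-box also matches) spaced like a carbohydrate response element, the word that MLXIP with MLX is known to bind. In the sequences, read 5′ to 3′ on the strand of the gene, capitals mark the E-box or the paired sites.
TXNIP, chr1:145996580-145996829, minus strand: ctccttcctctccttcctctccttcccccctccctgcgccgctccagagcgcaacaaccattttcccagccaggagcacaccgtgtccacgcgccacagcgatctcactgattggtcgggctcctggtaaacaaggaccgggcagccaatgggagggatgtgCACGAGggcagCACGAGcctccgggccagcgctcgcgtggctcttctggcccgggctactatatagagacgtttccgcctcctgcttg
ARRDC4, chr15:97960453-97960702, plus strand: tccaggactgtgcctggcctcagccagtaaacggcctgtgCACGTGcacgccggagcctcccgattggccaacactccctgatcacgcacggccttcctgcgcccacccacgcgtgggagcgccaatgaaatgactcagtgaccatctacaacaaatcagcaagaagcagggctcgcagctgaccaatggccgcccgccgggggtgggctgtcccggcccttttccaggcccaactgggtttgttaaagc
MXD4, chr4:2262332-2262357, minus strand: gccgggccacCACGTGctgttgctaa
MNT, chr17:2401238-2401263, minus strand: ctgcccgggcCACGTGtgcgcgcgcc
MLX, chr17:42567040-42567065, plus strand: gggcgcgggtCACGTGggcacgccac

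The TXNIP window shown held the paired sites at positions -88 to -72 from the start, and its other window (chr1:145995745-145995994) held neither word. The members had 13 windows together, and MYC had none. The E-box lay at -210 to -205 in ARRDC4, at -238 to -233 in MXD4, at -193 to -188 in MNT and at -50 to -45 in MLX. An E-box was found in 6.34% of the 35116 windows of the whole table, and the paired sites in 16 windows (0.0456%), so the second is the rarer word. Both are matches of letters and not evidence of binding. Genes with an E-box were called at shares near those of all genes: of 1297 tested genes with one, 35.5% were lower and 31.9% higher in SUM159 KD at an adjusted p under 0.05, beside 34.9% and 30.6% of the 11857 tested genes with any window. Of the 13 tested genes with the paired sites, TXNIP among them, 5 were lower and 5 higher in SUM159 KD, and 4 were lower and 4 higher in MDA-MB-231 KD, where the shares over all genes with a window were 18.2% and 23.7%. In BT549 OE, 9 of the 13 were higher and 1 lower (69.2% and 7.69%), beside 37.0% and 38.0% of all genes with a window, and TXNIP was not called there. GFPT1, which encodes the enzyme that opens the hexosamine pathway, was chosen from these 13 after its values were seen. Its log2 fold change was -0.75 in SUM159 KD and -0.10 in MDA-MB-231 KD, where it was not called. KCTD5, RCN3 and STX12, also among the 13, were called higher in both KD lines, and TXNIP was called lower in both.

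Over all genes tested, 37.7% differed between KD and EV in MDA-MB-231 (21.2% higher, 16.5% lower), 60.1% in SUM159 (28.6% higher, 31.4% lower) and 70.6% in BT549 (35.6% higher, 35.0% lower) at an adjusted p under 0.05 by edgeR's quasi-likelihood test. The balance in MDA-MB-231 depended on the scaling, since 56.2% of its called genes were higher under TMM and 36.7% when only library totals were used. Beside these shares, 4 members were called higher and 6 lower in MDA-MB-231 KD, 3 higher and 4 lower in SUM159 KD, and 3 higher and 3 lower in BT549 OE. The difference of the KD effects (SUM159 minus MDA-MB-231) was called for 9 members, 3 higher and 6 lower, and for 50.9% of all genes. The libraries of the compared groups did not overlap for 10 of 10 members in each KD line, which held for 66.0% of all genes in MDA-MB-231 and 76.7% in SUM159, and for 7 of 10 in BT549, against 82.9%. Since these comparisons chose the members, nothing is read from those counts. The plot of every library shows the drops of TXNIP, ARRDC4 and MYC in SUM159.

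**Figure D1:**
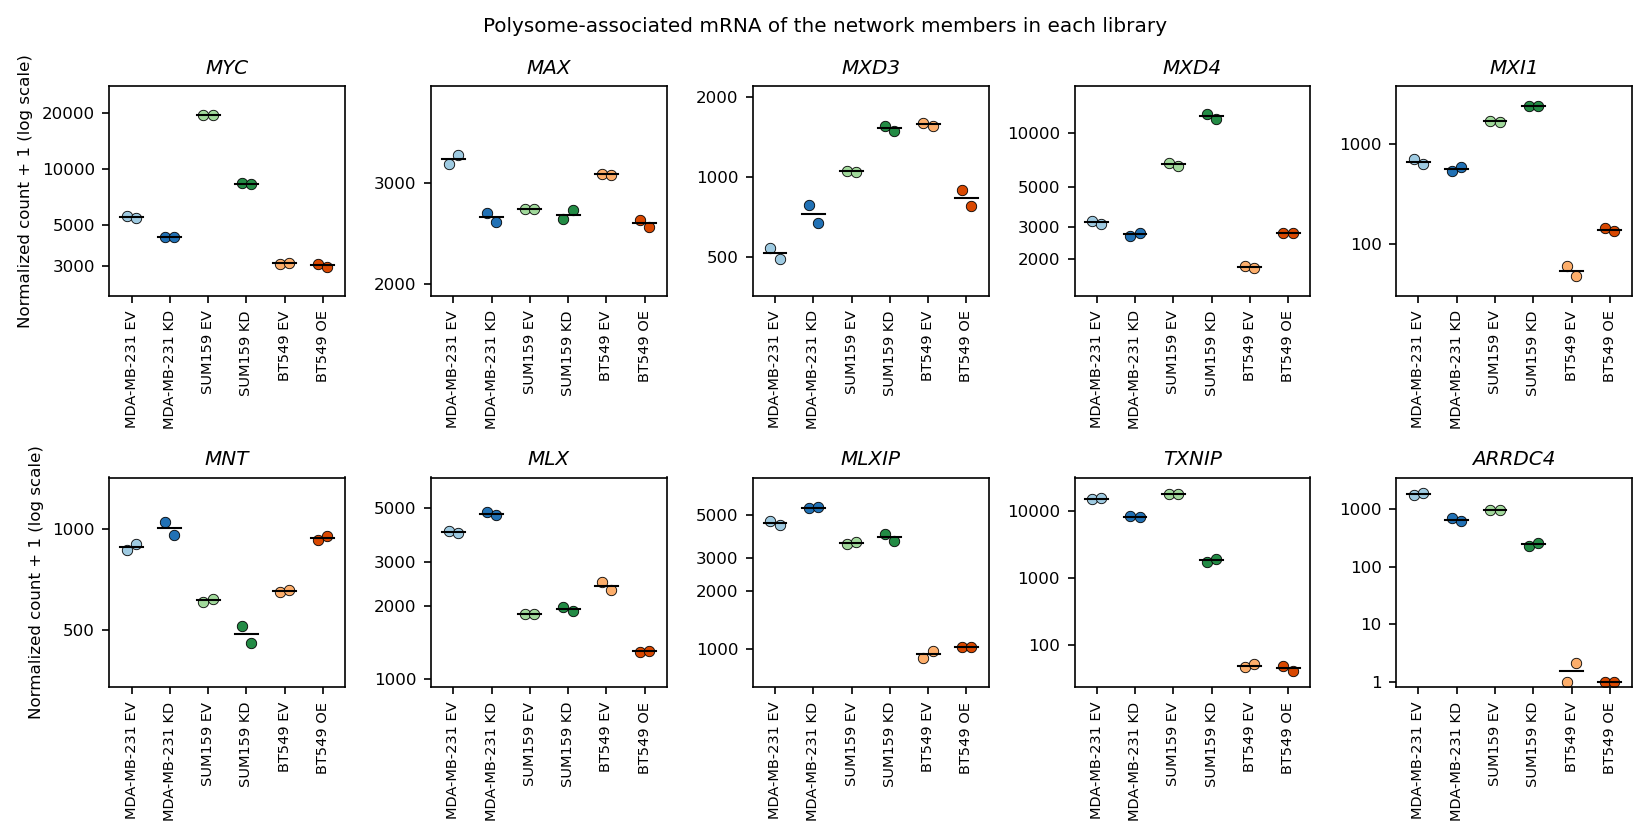
Normalized count plus 1 (log scale) of each member in each of the 12 libraries. Points are libraries, bars are means of 2 libraries, and the pale and dark colours are the control and the TRMT112-modified cells of a line. TXNIP in SUM159 drops from about 17980.0 to 1839, and TXNIP and ARRDC4 lie near the bottom of their axes in BT549.

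MYC, encoded on chromosome 8, the activator that pairs with MAX, had its highest level in SUM159 EV. Its normalized counts were 19650.5 and 19590.4 in the SUM159 EV libraries and 8423 and 8325 in KD, a log2 fold change of -1.23 (SE 0.03), or 2.34-fold lower. In MDA-MB-231 they were 5633 and 5469.9 in EV and 4326 and 4296 in KD, a log2 fold change of -0.36 (SE 0.03). The KD libraries lay below the EV libraries in both lines without overlap, and the drop was wider in SUM159, where the difference of the log2 fold changes (SUM159 minus MDA-MB-231) was -0.86 (SE 0.04). In BT549 the counts were 3096 and 3123 in EV and 3106 and 2978 in OE, overlapping groups with a log2 fold change of -0.03 (SE 0.03) that did not pass the test. In order, the group means ran from SUM159 EV (19620.4) through SUM159 KD (8374), MDA-MB-231 EV (5552) and MDA-MB-231 KD (4311) to BT549 EV (3109.5) and BT549 OE (3042), and only the last pair of neighbours overlapped. So MYC in SUM159 KD, though lower than in its control, was still above MYC in every library of the other lines.

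The mix of MYC transcripts moved little beside this drop. The main protein-coding transcript MYC-202 held 66.1% and 63.9% of the MYC counts in the SUM159 EV libraries and 64.3% and 64.2% in KD. In MDA-MB-231 it held 60.5% and 56.6% in EV and 59.3% and 60.9% in KD. A larger contrast lay between the lines, where MYC-213 held 18.0% and 15.7% in BT549 EV and 2.36% and 2.02% in SUM159 EV. Shares of transcripts are estimates, since the counts per transcript are themselves not whole numbers.

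MAX (chr14:65006174-65102695), the partner shared by MYC and its antagonists, stayed within a narrow range. Its normalized counts were 3244 and 3358 in MDA-MB-231 EV and 2662 and 2564 in KD, a log2 fold change of -0.34 (SE 0.04). In BT549 they were 3109 and 3099 in EV and 2587 and 2515 in OE, a log2 fold change of -0.28 (SE 0.04). SUM159 held 2705 and 2697 in EV and 2592 and 2686 in KD. These did not pass the test at -0.03 (SE 0.04), and the sign there turned with the scaling and the transcripts used, to 0.02 with RLE size factors and to 0.14 for the most abundant transcript alone, which passed the test in that direction. On a scale per transcript length (TPM, counts per transcript length scaled to the same total in each library), MYC exceeded MAX 4.57-fold in SUM159 EV and 2.02-fold in SUM159 KD. In MDA-MB-231 the ratio was 1.07 in EV and 1.03 in KD, and in BT549 0.680 in EV and 0.744 in OE. The MAX transcript MAX-205 held a mean of 43.1% of the MAX counts in SUM159 EV and 48.8% in KD, and 53.9% in MDA-MB-231 EV and 59.2% in KD.

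The MAX-binding repressors moved in different directions in the different lines, and MXD4 moved most in SUM159. MXD4 (chr4:2247432-2262109) had normalized counts of 6790.4 and 6607 in SUM159 EV and 12746 and 12011 in KD, a log2 fold change of 0.89 (SE 0.03). In BT549 it went from 1825 and 1793 in EV to 2791 and 2796 in OE, a log2 fold change of 0.63 (SE 0.04). In MDA-MB-231 it was lower in KD, with 3247 and 3142 in EV and 2684 and 2791 in KD and a log2 fold change of -0.22 (SE 0.04). The groups did not overlap in any of the 3 lines, and the KD effects of the lines had opposite signs, with a difference (SUM159 minus MDA-MB-231) of 1.11 (SE 0.05). One transcript, MXD4-201, held at least 96.7% of the counts in every library.

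MXI1 (chr10:110207605-110287365) had the same signs as MXD4 in each line. Its counts were 1719.8 and 1688 in SUM159 EV and 2445 and 2442 in KD, a log2 fold change of 0.52 (SE 0.06). BT549 held far less of it, 59.1 and 46.5 in EV and 142 and 132 in OE, a log2 fold change of 1.37 (SE 0.17) with a wide error at these low counts. The MDA-MB-231 change was small, from 709 and 631 to 533 and 592, at -0.25 (SE 0.07). That call rested on single libraries: the log2 fold change was -0.17 without EV replicate 1 and -0.18 without KD replicate 1, and neither passed the test. The table lists 38 transcripts of MXI1, and the leading one, MXI1-201, held 41.3% and 0.00605% of the counts in the 2 BT549 EV libraries, so its transcripts are not described singly.

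MXD3 (chr5:177301461-177312757) was the repressor that rose in both KD lines. It went from 540.0 and 490.4 to 786 and 669 in MDA-MB-231, with a log2 fold change of 0.50 (SE 0.08), and from 1057 and 1043 to 1566 and 1492 in SUM159, at 0.54 (SE 0.07). In BT549 OE it fell, from 1601 and 1558 to 889 and 775, at -0.92 (SE 0.07). So MXD3 was higher where TRMT112 was lowered and lower where TRMT112 was raised, without overlap in any line. The difference of the KD effects, SUM159 minus MDA-MB-231, was 0.04 (SE 0.11), which did not pass the test, and the sign of that difference turned to -0.03 without MDA-MB-231 EV replicate 1 and to -0.07 without MDA-MB-231 KD replicate 2.

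MNT (chr17:2384073-2401104), a repressor made in many tissues, ran against MXD4 and MXI1 in the KD lines. It was lower in SUM159 KD, with 608 and 620.3 in EV and 515 and 459 in KD and a log2 fold change of -0.34 (SE 0.08). In BT549 OE it was higher, with 648 and 657 in EV and 924 and 952 in OE, at 0.52 (SE 0.07). In MDA-MB-231 its 862 and 897 in EV and 1044 and 959 in KD gave 0.19 (SE 0.06). This last call was lost with library size alone (0.10), with protein-coding transcripts only (0.17), without EV replicate 1 (0.16) and without KD replicate 1 (0.13).

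Set against MYC on the TPM scale, the 4 repressors together were below MYC in SUM159 EV and above it in SUM159 KD. MYC was at 659 ± 8.35 TPM (SD, n = 2) in SUM159 EV and 259 ± 0.742 in KD, whereas the sum of the repressors went from 301 to 442 TPM. The ratio of MYC to that sum thus went from 2.19 to 0.586. In MDA-MB-231 it went from 1.28 to 0.950, with the sum of the repressors nearly level at 168 and 164 TPM. In BT549 the ratio was 0.608 in EV and 0.717 in OE. Within the sum, MXD4 was the largest term in SUM159 (140.3 ± 2.75 TPM in EV and 231 ± 6.33 in KD), while MXD3 was the largest in BT549 (107 ± 0.782 in EV and 53.6 ± 5.42 in OE). The sum leaves out MXD1, a MAX-binding repressor outside the member list, whose normalized count went from 830 to 348 in SUM159. All these values are amounts of mRNA in polysomes, not of protein.

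**Figure D2:**
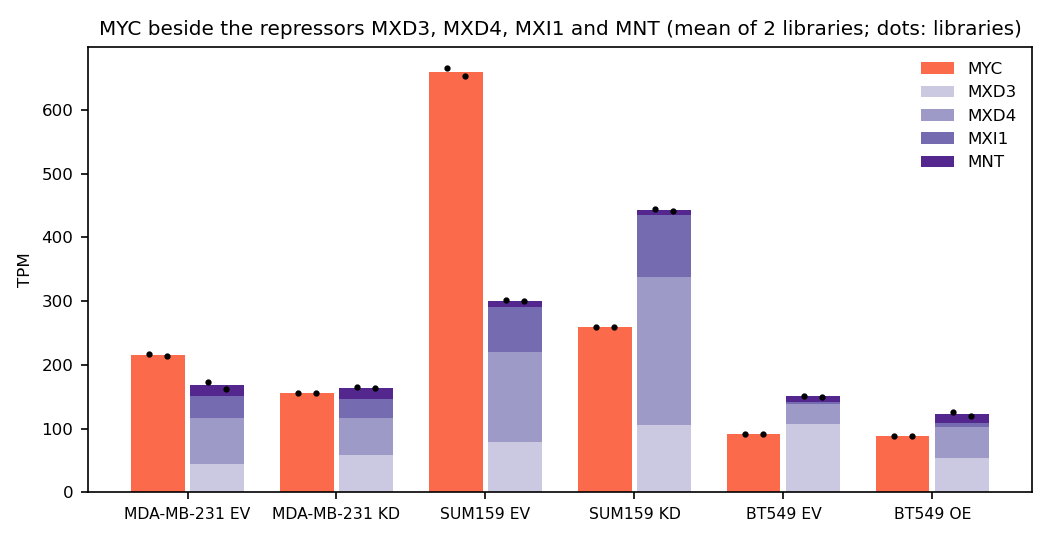
TPM of MYC (red bars) beside the stacked TPM of MXD3, MXD4, MXI1 and MNT (purple bars) in the 6 groups. Bars are means of 2 libraries and dots are the libraries; MYC stands at 659 above a stack of 301 in SUM159 EV and at 259 below a stack of 442 in SUM159 KD.

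MLXIP and MLX, whose products drive the arrestins, had log2 fold changes between 0.06 and 0.27 in the KD lines, where TXNIP and ARRDC4 were lower. MLXIP (chr12:122078756-122147344), which encodes MondoA, had normalized counts of 4628 and 4414 in MDA-MB-231 EV and 5421 and 5509.9 in KD, a log2 fold change of 0.27 (SE 0.04). In SUM159 its 3549.6 and 3630.2 in EV and 3988 and 3659 in KD gave 0.09 (SE 0.04), and in BT549 its 900.0 and 978 in EV and 1022 and 1024 in OE gave 0.12 (SE 0.06). Neither of the last values passed the test. The SUM159 value passed with RLE size factors (0.14), by DESeq2 (0.14) and without SUM159 KD replicate 2 (0.16). The BT549 value passed with library size alone (0.14) and without BT549 EV replicate 2 (0.18). Both passed when only genes averaging 50 counts or more were kept (0.11 in SUM159 and 0.15 in BT549). The difference of the KD effects was -0.18 (SE 0.06). It no longer passed with library size alone (-0.13), without MDA-MB-231 EV replicate 2 (-0.16) or without SUM159 KD replicate 2 (-0.12).

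A minor MLXIP transcript that keeps an intron appeared with the modified cells in SUM159 and BT549. MLXIP-208, annotated as a retained intron, held 0.221% and 0.458% of the MLXIP counts in SUM159 EV and 3.52% and 3.57% in KD. In BT549 it held 0.0556% and 0.594% in EV and 6.16% and 1.54% in OE, while in MDA-MB-231 it was at 0.00217% or below in all 4 libraries. The main transcript MLXIP-201 held between 93.7% and 99.7% throughout. MLXIP-208 was singled out after its values were seen, and its summed counts are low, at 151 or below in every library.

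MLX (chr17:42567072-42573239), the partner of MondoA, rose in MDA-MB-231 and fell in BT549. Its counts were 4016 and 3955 in MDA-MB-231 EV and 4804 and 4691 in KD, a log2 fold change of 0.25 (SE 0.04). In BT549 they were 2489.9 and 2312 in EV and 1287 and 1309 in OE, at -0.89 (SE 0.05). SUM159 had 1852 and 1855 in EV and 1971 and 1897 in KD, at 0.06 (SE 0.04), which did not pass the test, passed with RLE size factors (0.11) and turned to -0.07 for the most abundant transcript alone. The ratio of MLXIP to MLX on the TPM scale was 0.110 in BT549 EV and 0.267 in OE, 0.331 and 0.339 in MDA-MB-231 EV and KD, and 0.564 and 0.696 in SUM159 EV and KD. Per length, then, MLX exceeded MLXIP in every group.

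TXNIP (chr1:145992435-145996579) had the largest fold of the members. Its normalized counts were 17979 and 17981 in the SUM159 EV libraries and 1741 and 1937 in KD, a log2 fold change of -3.29 (SE 0.04), or 9.76-fold lower. In MDA-MB-231 they were 14932 and 15629 in EV and 8304 and 8205 in KD, at -0.89 (SE 0.03), or 1.85-fold lower. The KD and EV libraries did not overlap in either line, and the difference of the KD effects, SUM159 minus MDA-MB-231, was -2.40 (SE 0.05). In BT549 the counts were 44.9 and 49.8 in EV and 46.5 and 39.6 in OE, overlapping groups with a log2 fold change of -0.14 (SE 0.22). The EV means of SUM159 (17980.0) and MDA-MB-231 (15281) stood next to each other at the top without overlapping, followed by MDA-MB-231 KD (8254), SUM159 KD (1839) and, far below, the BT549 groups. The protein-coding transcript TXNIP-204 held at least 94.6% of the TXNIP counts in every library.

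ARRDC4 (chr15:97960703-97973833), the sister target, fell with TXNIP in both KD lines. It went from 1758 and 1901 to 701 and 633 in MDA-MB-231, with a log2 fold change of -1.46 (SE 0.07), and from 997 and 981 to 231 and 265 in SUM159, at -1.99 (SE 0.09). The difference of its KD effects was -0.54 (SE 0.12), smaller in size than that of TXNIP. On the TPM scale the ratio of TXNIP to ARRDC4 went up from 11.7 to 17.4 in MDA-MB-231 and down from 25.5 to 10.4 in SUM159. In BT549, ARRDC4 had 1 count in 1 EV library and 0 in the other 3, at or under the limit of 3 counts that a count of 0 allows, so no fold is given and a difference was not detectable at this depth. The plot of log2 fold changes sets the members side by side.

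**Figure D3:**
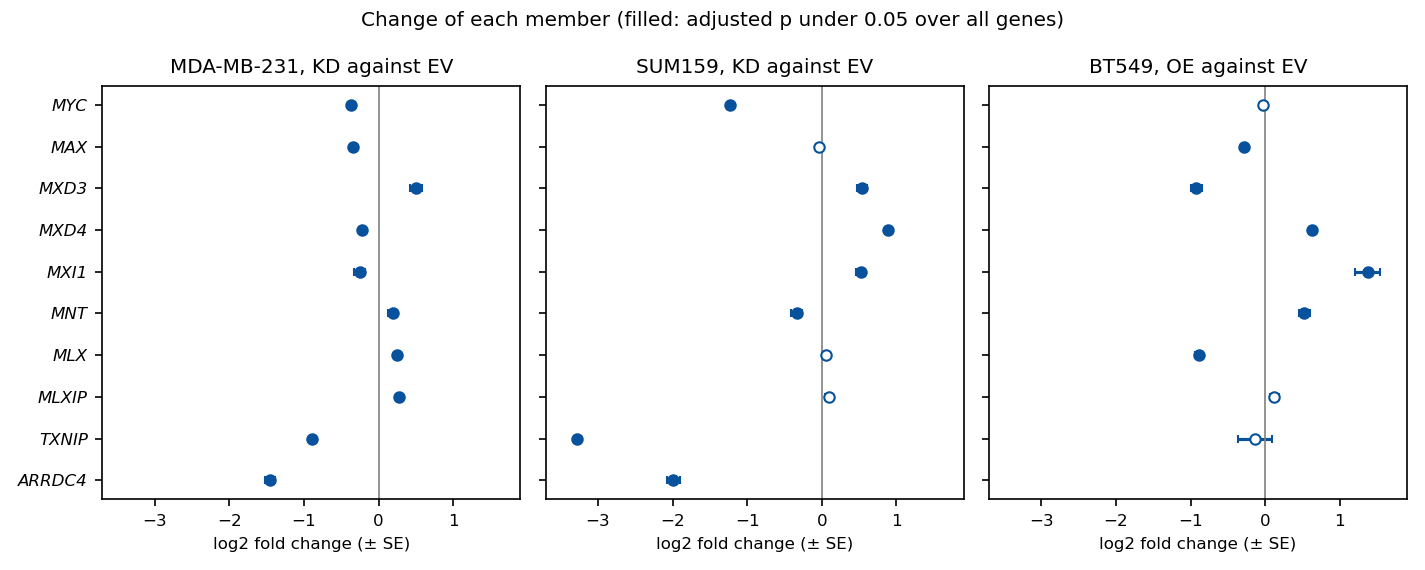
Log2 fold change (x axis, with SE) of each member in MDA-MB-231 KD, SUM159 KD and BT549 OE, each against its EV. Filled points passed an adjusted p under 0.05 over all genes and open points did not; ARRDC4 has no point in BT549. TXNIP in SUM159 lies farthest from 0, at -3.29, and MXD4 and MXI1 lie on opposite sides of 0 in MDA-MB-231 and SUM159 KD.

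The network has further genes outside the set. MXD1, another MAX-binding repressor, fell in all 3 lines, with a log2 fold change of -0.51 (SE 0.09, adjusted p = 7.53e-05) in MDA-MB-231, -1.26 (SE 0.10, adjusted p = 5.49e-11) in SUM159 and -1.22 (SE 0.15, adjusted p = 1.25e-07) in BT549 OE (edgeR quasi-likelihood, over all genes). MGA, which binds MAX and represses germ-line genes, fell in MDA-MB-231 KD (-0.46, SE 0.13, adjusted p = 0.00587) and SUM159 KD (-0.65, SE 0.13, adjusted p = 0.00019) and rose in BT549 OE (0.79, SE 0.13, adjusted p = 7.06e-06). MLXIPL, which encodes ChREBP, the liver relative of MondoA, went from 286 and 289 to 42.3 and 20.8 normalized counts in SUM159, a log2 fold change of -3.21 (SE 0.29, adjusted p = 1.62e-09), and was at 21.6 and 17.4 in MDA-MB-231 EV and 16.9 and 27.9 in KD. In BT549 it was within the limit of 3 counts in all libraries. MYCL stayed at 65.5 or below in every group, and MYCN had no entry in the table. Of these 5 genes 4 were tested. Of the 4, 2 were lower in MDA-MB-231 KD, 3 in SUM159 KD and 2 in BT549 OE, where 1 was higher. Over all genes, 16.5%, 31.4% and 35.0% were lower in these comparisons, and 35.6% were higher in BT549 OE.

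Genes that MYC is known to drive were read from lists written from general knowledge, with earlier results of these data known. Genes named from these lists and those below were picked for having the smallest p in a comparison. Their p-values thus describe the pick and are not independent evidence. In SUM159 KD, 46 of the 57 genes of list A, which holds nucleolar and growth targets, were called lower and 7 higher, beside 31.4% and 28.6% of all genes, and the median log2 fold change was -0.70, beside 0.00 over all genes. In MDA-MB-231 KD 22 were lower and 11 higher, beside 16.5% and 21.2% of all genes, with a median of -0.07. In BT549 OE 36 were higher and 14 lower, beside 35.6% and 35.0%, with a median of 0.41. The median of all genes there was 0.02. The count of 22 fell to 13 without MDA-MB-231 KD replicate 2. HSPD1, the mitochondrial chaperonin, fell in both KD lines, at -0.67 (SE 0.03, adjusted p = 8.07e-14) in MDA-MB-231 and -1.23 (SE 0.03, adjusted p = 9.43e-20) in SUM159. WDR43 and PES1, which act in ribosome production, fell in SUM159 KD, at -1.90 (SE 0.05, adjusted p = 1.88e-19) and -1.34 (SE 0.04, adjusted p = 5.69e-19). TBRG4, a mitochondrial RNA-binding protein, and CBX3, a heterochromatin protein, rose in MDA-MB-231 KD (0.51, SE 0.05, adjusted p = 6.73e-08, and 0.41, SE 0.04, adjusted p = 2.73e-08). Both were called lower in SUM159 KD (-1.05, SE 0.05, and -0.40, SE 0.04). In BT549 OE, TBRG4 was called lower (-0.27, SE 0.05) and CBX3 was not called. In BT549 OE, DCTPP1, which clears modified nucleotides, and NIP7, a factor of ribosome production, rose (1.82, SE 0.04, adjusted p = 2.57e-22, and 1.40, SE 0.05, adjusted p = 2.92e-18), whereas HK2, which encodes a hexokinase, fell (-2.73, SE 0.06, adjusted p = 7.43e-21), in the same comparison in which CD68 went from 4209.8 to 165. Across the KD lines 18 of the 57 were lower in both, 3 higher in both and 10 called in opposite directions. The matching shares over all genes were not computed, so nothing is read from these joint counts. The difference between the lines itself was called lower in SUM159 for 43 genes and higher for 5, beside 27.7% and 23.2% of all genes.

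List B, of 20 classical single targets, gave 14 lower and 2 higher in SUM159 KD (median -0.39), beside 31.4% and 28.6% of all genes. It gave 9 lower and 2 higher in MDA-MB-231 KD (median -0.15), beside 16.5% and 21.2%. In BT549 OE 11 were higher and 6 lower, beside 35.6% and 35.0%. The BT549 median was 0.36, or 0.28 without CCND2 and TERT, which were at or under 3 counts in all BT549 libraries. SHMT2, a mitochondrial enzyme of one-carbon metabolism, went from 8981 ± 40.7 to 2485 ± 61.4 normalized counts (mean ± SD of 2 libraries) in the SUM159 groups, with a log2 fold change of -1.85 (SE 0.03, adjusted p = 2.72e-22), and fell by 0.34 on the log2 scale in MDA-MB-231. Nucleolin (NCL) fell in both KD lines (-0.42 and -1.31) and rose in BT549 OE (0.71, SE 0.03, adjusted p = 7.52e-16). ENO1, an enolase, fell in SUM159 KD (-0.75, SE 0.02, adjusted p = 1.61e-18) and PTMA, prothymosin alpha, in MDA-MB-231 KD (-0.33, SE 0.03, adjusted p = 7.1e-09). ODC1, the first enzyme of polyamine synthesis, rose in BT549 OE at 1.22 (SE 0.03, adjusted p = 1.13e-19) and LDHA, lactate dehydrogenase, at 0.64 (SE 0.03, adjusted p = 1.68e-16). MYC itself did not pass the test in BT549, where 70.6% of all genes did. The difference between the KD lines was called lower in SUM159 for 12 of the 20 and higher for 3. The shares of all genes were 27.7% and 23.2%.

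**Figure D4:**
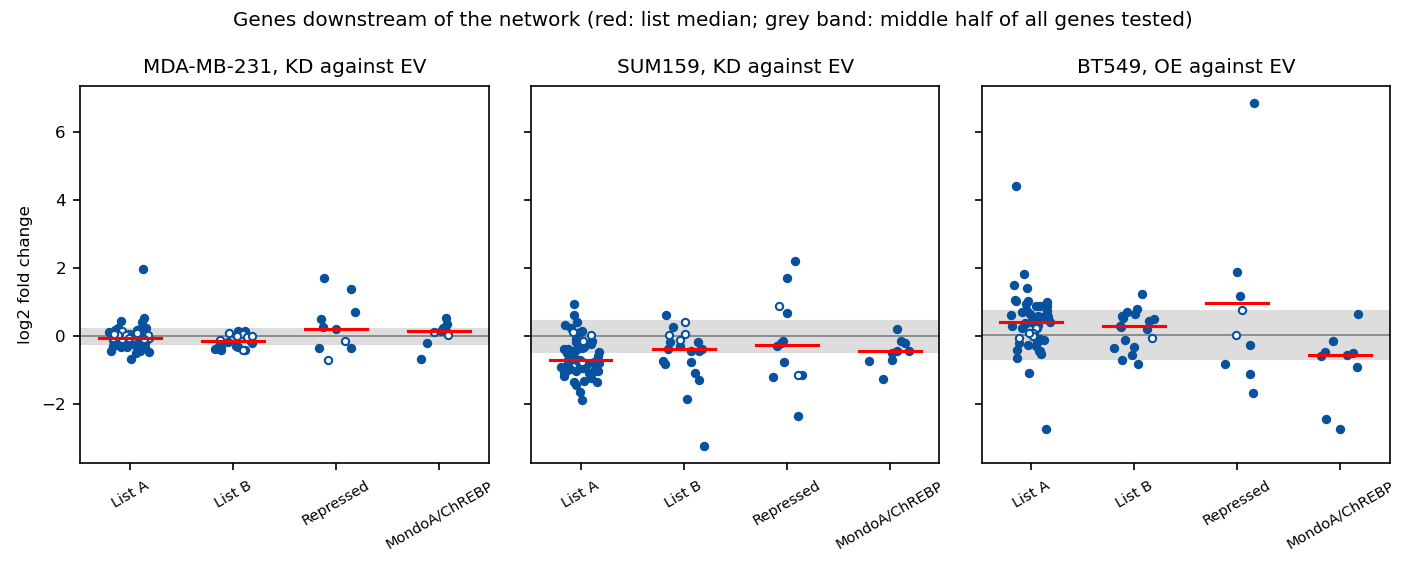
Log2 fold change of single genes (points) of list A, list B, the genes that MYC is known to repress and the other targets of MondoA or ChREBP, in the 3 comparisons. Filled points passed an adjusted p under 0.05, red lines are list medians with genes near 0 in 1 group set to the fold that 3 counts allow and those near 0 in both left out, the grey band is the middle 50% of all genes tested, and genes at or under 3 counts in both libraries of a group are not drawn. In SUM159 KD the list A median lies at -0.70, below the band.

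Of 12 genes that MYC is known to repress, 6 were higher and 2 lower in MDA-MB-231 KD, beside 21.2% and 16.5% of all genes. Counts were 3 and 7 in SUM159 KD (28.6% and 31.4% of all genes) and 6 and 4 in BT549 OE (35.6% and 35.0%). The medians were 0.10, -0.26 and 0.97, and the first became 0.21 with CDKN2B, at or under 3 counts in both groups, left out and a gene near 0 in 1 group set to the fold that 3 counts allow. CLU (clusterin) rose in MDA-MB-231 KD (0.71, SE 0.05, adjusted p = 1.55e-10) and fell in SUM159 KD (-0.77, SE 0.04, adjusted p = 1.61e-13). NDRG1, a stress-induced gene, rose in MDA-MB-231 KD (0.49, SE 0.04, adjusted p = 1.25e-09) and SUM159 KD (0.67, SE 0.04). It also went up in BT549 OE, from 73.2 ± 1.75 to 8439 ± 346 normalized counts (mean ± SD of 2 libraries). Thrombospondin (THBS1) rose in SUM159 KD (1.71, SE 0.05, adjusted p = 4.17e-19), and the receptor gene PDGFRB rose in MDA-MB-231 KD (1.38, SE 0.11, adjusted p = 7e-10). GADD45G, a growth arrest gene, fell in SUM159 KD (-2.34, SE 0.10, adjusted p = 6.08e-15) but was called higher in BT549 OE, from 0 to 36.4 normalized counts. CDKN1A, the p21 inhibitor of cyclin-dependent kinases, fell in BT549 OE (-1.67, SE 0.05, adjusted p = 1.15e-19). It was also called lower in MDA-MB-231 KD (-0.36, SE 0.05) and SUM159 KD (-0.15, SE 0.04).

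Among 12 genes for the turnover of MYC protein, 3 were higher and 4 lower in MDA-MB-231 KD, beside 21.2% and 16.5% of all genes. Counts were 3 and 6 in SUM159 KD (28.6% and 31.4% of all genes) and 2 and 10 in BT549 OE (35.6% and 35.0%). The medians were 0.02, -0.17 and -0.37. SKP2, an F-box protein, rose in MDA-MB-231 KD (0.46, SE 0.05, adjusted p = 1.35e-07), as did SET (0.31, SE 0.03, adjusted p = 9.15e-09), a phosphatase inhibitor. The kinase gene AURKA fell in SUM159 KD (-0.82, SE 0.04, adjusted p = 2.28e-15) and BT549 OE (-0.73, SE 0.04, adjusted p = 1e-14), and STUB1, a ubiquitin ligase, rose in both (0.59, SE 0.04, adjusted p = 4.3e-11, and 1.61, SE 0.05, adjusted p = 7.15e-19). GSK3B, the kinase that marks MYC for decay, fell in BT549 OE (-0.68, SE 0.04, adjusted p = 1.3e-12).

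Of 10 coactivators and partners of MYC, 1 was higher and 4 lower in MDA-MB-231 KD, beside 21.2% and 16.5% of all genes. Counts were 1 and 6 in SUM159 KD (28.6% and 31.4% of all genes) and 3 and 4 in BT549 OE (35.6% and 35.0%). The medians were -0.03, -0.41 and -0.03. The paired ATPases RUVBL1 and RUVBL2 fell in SUM159 KD (-1.57, SE 0.04, adjusted p = 3.24e-20, and -1.01, SE 0.03, adjusted p = 2.42e-17), and RUVBL2 rose in BT549 OE (0.33, SE 0.03, adjusted p = 6.76e-09). The scaffold gene TRRAP fell in MDA-MB-231 KD (-0.49, SE 0.07, adjusted p = 7.02e-06) and rose in SUM159 KD (0.49, SE 0.06, adjusted p = 3.83e-07). HCFC1, a host cell factor that binds MYC, fell in all 3 lines (-0.23, -0.36 and -0.35), and WDR5 in BT549 OE (-0.67, SE 0.04, adjusted p = 3.1e-14).

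Of 7 corepressor genes on which MXD and MNT proteins rely, 3 were higher and 2 lower in MDA-MB-231 KD. The shares of all genes there were 21.2% and 16.5%. Counts were 2 and 4 in SUM159 KD (28.6% and 31.4% of all genes) and 2 and 4 in BT549 OE (35.6% and 35.0%). The medians were -0.04, -0.12 and -0.12. The scaffold gene SIN3A fell in SUM159 KD (-0.66, SE 0.06, adjusted p = 7.28e-10) and BT549 OE (-0.59, SE 0.06, adjusted p = 6.7e-09), where SIN3B rose (0.71, SE 0.05, adjusted p = 1.93e-11). The deacetylase gene HDAC2 fell in SUM159 KD (-0.65, SE 0.04, adjusted p = 6.1e-13) and HDAC1 in BT549 OE (-0.97, SE 0.04, adjusted p = 8.82e-16). NCOR1, a corepressor of nuclear receptors, fell in both KD lines, at -0.18 (SE 0.04, adjusted p = 0.000573) in MDA-MB-231 and -0.78 (SE 0.05, adjusted p = 3.12e-12) in SUM159. HDAC1 and the SIN3 subunit gene SUDS3 rose in MDA-MB-231 KD, at 0.14 (SE 0.04, adjusted p = 0.0079) and 0.15 (SE 0.04, adjusted p = 0.00691).

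Other reported targets of MondoA or ChREBP were counted beside TXNIP and ARRDC4. Of 9 tested, 8 were lower and 1 higher in SUM159 KD (median -0.46), beside 31.4% and 28.6% of all genes. In MDA-MB-231 KD 2 were lower and 5 higher (median 0.14), beside 16.5% and 21.2%. In BT549 OE 8 were lower and 1 higher (median -0.58), beside 35.0% and 35.6%. The difference between the KD lines was called lower in SUM159 for 9 of 9, from -0.76 to -0.31, beside 27.7% of all genes. KLF10, a transcription factor gene, fell in both KD lines (-0.69, SE 0.06, adjusted p = 1.91e-09, and -1.27, SE 0.06, adjusted p = 2.48e-15), as TXNIP and ARRDC4 did. ELOVL6 and FASN, of fatty acid synthesis, rose in MDA-MB-231 KD (0.51, SE 0.04, adjusted p = 1.28e-09, and 0.36, SE 0.03, adjusted p = 2.02e-08), and ACLY, which makes cytosolic acetyl-CoA, had a difference of KD effects of -0.73 (SE 0.05, adjusted p = 2.89e-11). PFKFB3 and LDHA, of glycolysis, fell in SUM159 KD (-0.73, SE 0.05, adjusted p = 1.26e-11, and -0.44, SE 0.02, adjusted p = 2.19e-13). In BT549 OE, ELOVL6 fell (-2.46, SE 0.05, adjusted p = 1.57e-21) with HK2, while LDHA rose. HK2 and LDHA stand on the MYC target lists too.

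Among 10 partners and regulators of TXNIP, 4 were higher and 3 lower in MDA-MB-231 KD, beside 21.2% and 16.5% of all genes. Counts were 4 and 5 in SUM159 KD (28.6% and 31.4% of all genes) and 4 and 5 in BT549 OE (35.6% and 35.0%). The medians were 0.00, -0.02 and -0.95. The BT549 median was -0.88 with NLRP3, at or under 3 counts in both groups, left out and PRKAA2, at 0 in OE, set to the fold that 3 counts allow. DDIT4, a stress-induced brake on mTORC1, went from 64613 ± 874 to 15411 ± 647 normalized counts (SD, n = 2) in SUM159 (-2.07, SE 0.03, adjusted p = 5.77e-24). It also fell in MDA-MB-231 KD (-0.36, SE 0.03, adjusted p = 1.7e-09) and BT549 OE (-1.74, SE 0.03, adjusted p = 7.83e-23). NEDD4L, a ubiquitin ligase, and PRKAA1, a catalytic subunit of AMPK, fell in SUM159 KD (-1.99, SE 0.13, adjusted p = 5.8e-12, and -0.84, SE 0.05, adjusted p = 3.34e-12). TXNRD1, thioredoxin reductase, and TXN2, the mitochondrial thioredoxin, rose in MDA-MB-231 KD (0.47, SE 0.03, adjusted p = 5.69e-12, and 0.32, SE 0.04, adjusted p = 3.02e-07). In BT549 OE, TXNRD1 fell (-1.01, SE 0.03, adjusted p = 1.48e-18), and so did TXN, the cytosolic thioredoxin that TXNIP binds (-1.15, SE 0.04, adjusted p = 1.22e-17).

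The other alpha-arrestins are relatives of TXNIP and ARRDC4 that tie membrane proteins to ubiquitin ligases. Of 4 listed, 3 were tested, and in MDA-MB-231 KD their log2 fold changes lay between -0.08 and 0.12. There, 0 were called by edgeR, 0 by DESeq2 and 1 at an unadjusted p under 0.05 by either tool. Of all genes, 37.7% were called by edgeR in that comparison. In SUM159 KD, ARRDC1 rose (0.72, SE 0.05, adjusted p = 3.06e-11) and ARRDC2 fell (-0.22, SE 0.07, adjusted p = 0.0094), while in BT549 OE ARRDC1 and ARRDC3 fell (-2.03, SE 0.09, adjusted p = 2.11e-15, and -0.75, SE 0.06, adjusted p = 2.63e-10). In BT549 EV, ARRDC3 was at 27.7 ± 0.199 TPM (SD, n = 2) beside 1.07 ± 0.0836 for TXNIP. In SUM159 EV the order was the other way, with 11.7 ± 0.141 TPM for ARRDC3 and 465 ± 4.12 for TXNIP.

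Across the 12 libraries, the genes whose log2 CPM values (library-scaled counts) ran most like MYC among 12580 genes were NEK9, MMUT and SLC27A2, each with a Pearson correlation of 0.98. NEK9 went from 1622 normalized counts in SUM159 EV to 691 in BT549 EV. SLC27A2, at 243 in SUM159 EV, was at 10.2 in MDA-MB-231 EV and at 1.64 in BT549 EV. The genes most like TXNIP were ETV4 (0.996), AOC2 (0.995) and SINHCAF (0.994). ETV4 was at 2049 in MDA-MB-231 EV and 1818 in KD, at 1891 and 1049.8 in SUM159 EV and KD, and at 322 and 311 in BT549 EV and OE. The 12 libraries fall into 3 lines of 4, and libraries of a line share their cells and medium. These correlations therefore describe levels that ran together over lines and groups, and carry no p-value. The order of groups need not match, since ETV4 was higher in MDA-MB-231 EV than in SUM159 EV and TXNIP was lower (15281 against 17980).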

How the data were processed

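Polysome-bound RNA of 12 libraries was sequenced. Per the labels and methods, the authors used Trimmomatic for trimming, HISAT2 and GRCh38 for alignment, SAMtools against PCR duplicates, and Partek, while the counting tool, annotation and strand setting are not given in the sources used here. Removing duplicates can flatten the highest genes. The library kit is oligo-dT based in the labels but stranded and rRNA-depleted in the methods, which was not resolved. The deposited table holds estimated counts for 201932 Ensembl transcripts. The 8 MDA-MB-231 and SUM159 columns carry a mark in place of a number in 5.08% of the transcripts (0.121% of the BT549 counts), and the deposited values there, taken otherwise as the same counts, were set to 0. The methods name RPKM, which the table does not hold. It had 0 further columns of samples.

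Transcripts were matched to GENCODE 44 (79.6%), summed per symbol and rounded. Replicates of a group differed by more than sampling noise. TMM, filterByExpr and the quasi-likelihood test of edgeR 4.0.16 (limma 3.58.1, R 4.3.3) were fitted to 6 group means, with Benjamini-Hochberg adjustment over all 16538 genes and calls at an adjusted p under 0.05. The test was tried on simulated data first. TPM used GENCODE transcript lengths, and a count of 0 was taken to allow 3 counts, which covers counting error only. Alternatives were RLE size factors, library size alone, DESeq2 1.42.0, other filters, the replicate number as a block, single lines, protein-coding or most abundant transcripts, no marked transcripts, and each library left out. Tables and plots used Python 3.11.15, pandas 2.3.3, numpy 2.4.6, scipy 1.17.1 and matplotlib 3.10.9.

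The members, lists and rules were chosen with earlier results of these data known. Genes named were the members, TRMT112, other network genes, the 3 of each list with the smallest p among those called in each comparison, and the 3 most correlated with MYC and with TXNIP (log2 CPM with a prior count of 2, over genes averaging 50 counts or more). GFPT1, KCTD5, RCN3, STX12 and MLXIP-208 were added after their values were seen. Some genes that this rule names are not reported here.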

Additional observations from a re-analysis of the deposited data

Results flagged for a closer look

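The KD effect (log2, KD against EV) differed between SUM159 and MDA-MB-231 by the test of the difference itself for 9 of the 10 members, beside 50.9% of all genes tested. Since the members were listed with these values known, the differences (SUM159 minus MDA-MB-231) are given as a description. They were 1.11 for MXD4, 0.77 for MXI1 and 0.30 for MAX, and -2.40 for TXNIP, -0.86 for MYC, -0.54 for ARRDC4, -0.52 for MNT, -0.19 for MLX and -0.18 for MLXIP. MXD4, MXI1 and MNT had KD effects of opposite sign in the lines. The lines differ in more than their response to TRMT112 (medium supplements, and a larger drop of TRMT112 itself in MDA-MB-231), and the part of these was not tested.

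Among network genes outside the member list the difference was -3.40 for MLXIPL and -0.74 for MXD1. For MYC targets it was -0.56 for HSPD1, -0.81 for CBX3, -1.56 for TBRG4, -1.56 for WDR43, -1.23 for PES1, -0.89 for NCL, -1.51 for SHMT2, 0.37 for PTMA and -0.76 for ENO1, PTMA being the single positive value of these. For genes that MYC is known to repress it was -1.48 for CLU, -2.58 for PDGFRB, 0.17 for NDRG1 and 1.5 for THBS1. Among turnover genes it was -0.31 for SET, -0.90 for AURKA and 0.64 for STUB1.

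For coactivators the difference was 0.98 for TRRAP, -1.55 for RUVBL1 and -1.03 for RUVBL2. For corepressors it was -0.60 for NCOR1, 0.26 for SUDS3, -0.20 for HDAC1, -0.61 for HDAC2 and -0.47 for SIN3A. For MondoA or ChREBP targets it was -0.31 for ELOVL6, -0.58 for KLF10, -0.51 for FASN, -0.58 for LDHA and -0.76 for PFKFB3. For TXNIP partners and alpha-arrestins it was -0.35 for TXNRD1, -1.71 for DDIT4, -0.85 for PRKAA1, -2.17 for NEDD4L and 0.60 for ARRDC1. Each of these passed an adjusted p under 0.05 by edgeR's quasi-likelihood test over all genes.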

How the results depend on the processing

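Of 848 recomputed fold changes of members and their differences, 821 kept their direction and side of the threshold. The 848 include fits that left out a library of a line outside the comparison, which could change these values little. With RLE size factors, 5 members in place of 3 were called higher in SUM159 KD, as MLX (0.11) and MLXIP (0.14) passed. In MDA-MB-231 KD, list A genes called higher were 7 in place of 11 with library size alone and 7 with protein-coding transcripts only, and list B genes called higher were 0 by edgeR in place of 2 with library size alone (1 at an unadjusted p under 0.05, 3 by DESeq2). Signs turned for MAX in SUM159 (0.0214 with RLE size factors, 0.0367 with protein-coding transcripts, 0.144 for the most abundant transcript, which passed the test, 0.0183 by DESeq2), for MYC in BT549 (0.0185 with protein-coding transcripts), for MLX in SUM159 (-0.0668 for the most abundant transcript) and for the MXD3 difference (-0.158 for the most abundant transcript, and from -0.0748 to 0.160 with 1 library left out, below 0 without MDA-MB-231 EV replicate 1 or KD replicate 2), all values that had not passed the test with TMM and summed transcripts. Leaving out each library in turn gave 13 to 22 list A genes called lower in MDA-MB-231 KD, 13 being without KD replicate 2. The causes were not tested. Libraries with the same replicate number did not deviate together (correlations of 0.02, -0.02 and 0.00 over 12590 genes). With 2 libraries a group, this check cannot show that the numbers carry no pairing. With the replicate number as a block, 4 members were called higher and 6 lower in MDA-MB-231, 3 and 4 in SUM159 and 3 and 3 in BT549, and the list A count called lower in MDA-MB-231 was 21. With 2 libraries a group and 6 residual degrees of freedom, low genes such as BT549 TXNIP and ARRDC4 are limited by depth.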
